A study of Homo sapiens with 4 samples.

Results

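Epithelial-mesenchymal transition (EMT) is the programme by which epithelial cells lose their junctions and take on the shape, motility and matrix output of mesenchymal cells. It is driven by a small set of DNA-binding repressors, of which ZEB1 and ZEB2 carry zinc finger clusters and homeodomain-like regions, SNAI1 and SNAI2 are zinc finger proteins of the Snail family, and TWIST1 is a basic helix-loop-helix factor. ZEB and Snail proteins bind E-boxes in genes such as CDH1 (E-cadherin), and carcinoma cells that express them often carry the intermediate filament protein VIM (vimentin) and secrete FN1 (fibronectin), SPARC, TGFBI and THBS1 (thrombospondin 1). These 10 genes, 5 transcription factors and 5 mesenchymal markers, were looked up by symbol among the 61228 genes of the count data. All 10 were found and all 10 passed the filter on low counts, which kept 19159 genes.

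The counts come from RNA sequencing of H1792, an established human lung cancer line that the labels list with the genotype WT. The 2 DMSO libraries are from cells kept in the solvent for 96 h. The 2 ACBI1 libraries are from cells given the degrader ACBI1 for 96 h, at a dose that the labels write as 1 mM, a unit that may be an error and could not be checked. ACBI1 is a PROTAC, a molecule that brings SMARCA2, SMARCA4 and PBRM1, proteins of the SWI/SNF chromatin remodelling complexes, to the VHL ubiquitin ligase for degradation, and the comparison asks which transcripts differ after it. Results come from 1 cell line, and the labels do not say whether the replicates were separate cultures, so the p-values measure the spread between these libraries, which may be technical. Gene counts summed to between 64281850 and 86010100 per library, and a count of 3 stood for 0.0335 to 0.0458 counts per 1000000 (CPM). Transcripts of the targets cannot check protein loss: the log2 change was 0.70 for SMARCA4, -0.40 for SMARCA2 and 0.10 for PBRM1, none of them called. The share of reads that the counting matched to no feature was 5.65% and 5.07% with DMSO and 6.05% and 6.24% with ACBI1. Its part in the results was not tested.

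With ACBI1, the EMT genes did not move as a block. Transcripts of 5 of the 10 fell: the repressors ZEB2 and SNAI2 and the secreted matrix proteins FN1, SPARC and TGFBI, by between 2.52-fold and 8.06-fold. ZEB1, TWIST1 and VIM overlapped between the groups, with log2 changes of -0.01, -0.15 and 0.02. SNAI1 was lower in both ACBI1 libraries but did not pass the test, and THBS1 differed more between replicates than between treatments. Calls rest on edgeR's quasi-likelihood test with an adjusted p (Benjamini-Hochberg, over all genes tested) under 0.05. By this rule 17.4% of all genes tested were called, 10.6% lower and 6.75% higher. None of the 10 was called higher by edgeR, DESeq2 or limma-voom, and at an unadjusted p under 0.05, which 33.9% of all genes tested reached, 6 were lower and 0 higher. Over the 10 genes the log2 change had a median of -1.22, against 0.01 over all genes tested. Both ACBI1 libraries lay below both DMSO libraries for 6 of the 10, and for 32.2% of all genes tested.

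**Figure D1:**
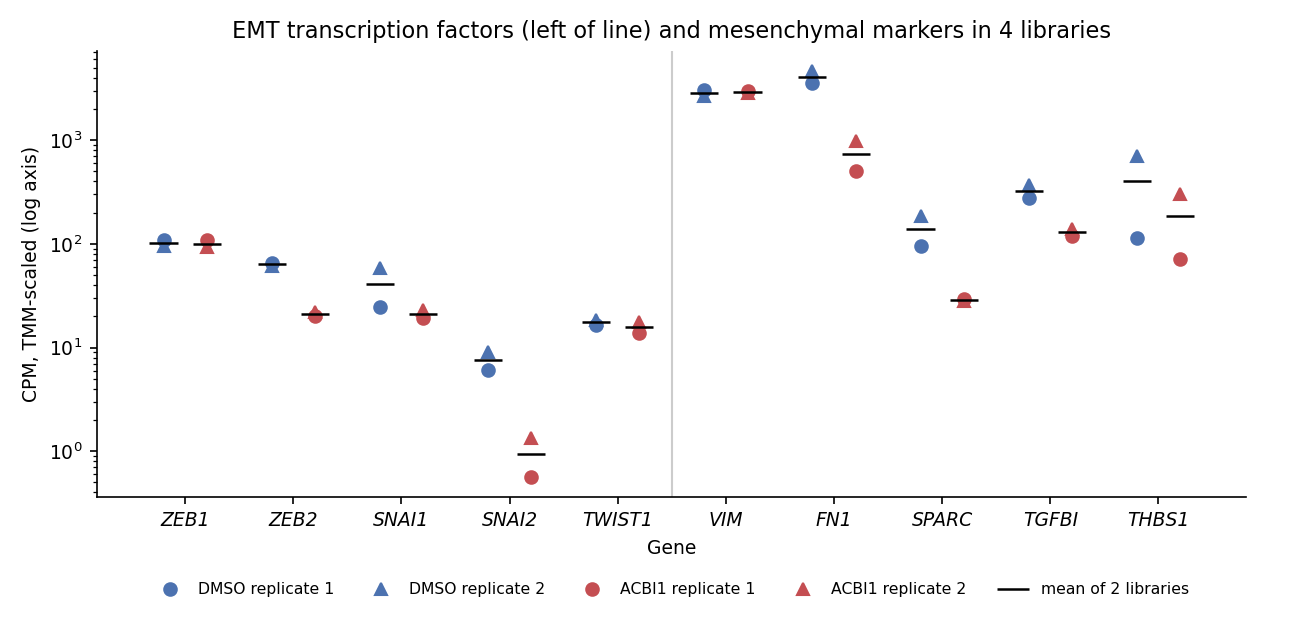
TMM-scaled CPM (vertical log axis) of the 5 EMT transcription factors and 5 mesenchymal markers (horizontal axis) in each library, with DMSO in blue, ACBI1 in red, replicate 1 as circles, replicate 2 as triangles and the mean of 2 libraries as a bar. The blue and red points of ZEB2, SNAI2, FN1, SPARC and TGFBI stand apart, those of ZEB1, TWIST1 and VIM lie at the same height, and THBS1 is higher in replicate 2 of both groups.

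Levels of different genes were compared per length, as transcripts per 1000000 (TPM) over the merged exons of GENCODE release 29. VIM was the most abundant of the 10 in each library, at 1976 ± 102 TPM with DMSO and 2092 ± 88.0 TPM with ACBI1 (SD, n = 2), and ranked 41 and 37 among all genes by these means. FN1 followed with 848 ± 189 TPM with DMSO, which was rank 108, and fell to 158 ± 68.6 TPM and rank 865 (SD, n = 2). With DMSO, THBS1 (161 ± 167 TPM), TGFBI (149 ± 37.1 TPM), SPARC (104 ± 50.9 TPM) and SNAI1 (88.2 ± 53.1 TPM) overlapped in their spread (SD, n = 2), and that of SNAI1 reached the level of ZEB1. ZEB1 was at 41.9 ± 2.53 TPM, above TWIST1 at 30.9 ± 3.73 TPM, and the lowest were ZEB2 at 9.02 ± 0.0555 TPM and SNAI2 at 8.04 ± 2.55 TPM, which did not differ beyond their spread (SD, n = 2, DMSO). The merged exons of ZEB2 add up to 25058 bases over all annotated isoforms, and a shorter main transcript would raise its TPM. With ACBI1, ZEB2 was at 3.14 ± 0.147 TPM and SNAI2 at 1.04 ± 0.573 TPM (SD, n = 2).

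Cadherins and keratins describe the control cells. CDH2 (N-cadherin), the cadherin of mesenchymal and neural cells, was at 841 ± 128 TPM with DMSO (SD, n = 2), while CDH1 was represented by 4 and 16 counts with DMSO and by 7 and 6 with ACBI1, too few to be tested. CDH11, another cadherin of mesenchymal cells, had at most 3 counts in any library. EPCAM, which encodes an epithelial surface protein, was at 5.38 and 2.78 CPM with DMSO and 15.6 and 4.84 CPM with ACBI1. Those EPCAM values overlap between the groups, and the log2 change of 1.32 was not called (adjusted p 0.179). The keratins were nevertheless present with DMSO, KRT7 at 678 and 680 CPM, KRT8 at 155 and 192 CPM and KRT18 at 140 and 155 CPM. The summed level of the 6 markers of lung carcinoma epithelium, mostly KRT7 with DMSO, was 982 and 1035 CPM with DMSO and 323 and 202 CPM with ACBI1. Of 5 of these markers tested, KRT7, KRT8, KRT18 and KRT19 were called lower. KRT7, the most abundant, had a log2 change of -2.50 (edgeR adjusted p 0.0229), which was -3.48 without ACBI1 replicate 1, and KRT18 was not called without that library (adjusted p 0.0742).

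Among the transcription factors, the ZEB pair is described first. ZEB1 was at 109 and 94.6 CPM in DMSO replicates 1 and 2 and at 108 and 93.6 CPM in ACBI1 replicates 1 and 2. The groups overlap, and within each group the libraries differed by 1.15-fold. Its log2 change of -0.01 had a 95% interval from -0.42 to 0.39 and an edgeR adjusted p of 0.966, and the sign turned under scaling by upper quartile (0.02) or by library size only (0.08).

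ZEB2 was at 65.2 and 61.4 CPM with DMSO and at 20.2 and 22.0 CPM with ACBI1. Both ACBI1 libraries were well below both DMSO libraries, and the libraries within a group differed by at most 1.09-fold, the tightest agreement among the genes that fell. The log2 change of ZEB2 was -1.58 (SE 0.16) with an edgeR adjusted p of 0.00396, and it stayed between -1.66 and -1.51 with each library left out in turn.

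The 2 genes encode repressors that bind the same E-box core, and their counts can be compared within a library, where no scaling enters. ZEB2 counts were 0.601 and 0.649 of the ZEB1 counts with DMSO and 0.188 and 0.235 of them with ACBI1, so that the ratio was 2.97-fold lower with the degrader. The pairs of genes compared this way were chosen after their values were seen. With 2 libraries in each group, an exact permutation test of such a ratio cannot go below a p of 0.333, and the ratios are given as a description.

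Of the Snail genes, SNAI1 is known for inducing loss of E-cadherin, and its protein is short-lived. SNAI1 was at 24.5 and 57.8 CPM with DMSO and at 19.4 and 23.0 CPM with ACBI1. DMSO replicate 2 stood 2.36-fold above DMSO replicate 1, which was itself close to the ACBI1 libraries. The log2 change of -0.96 (SE 0.39) was not called (adjusted p 0.145). Without DMSO replicate 2 it was -0.21, and without DMSO replicate 1 it was -1.44, so the size rests on which control library is used.

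SNAI2 (Slug), expressed in migrating neural crest and in basal epithelia, had the largest change of the 10. It had 495 and 655 counts with DMSO and 51 and 87 with ACBI1, which is 6.08 and 9.10 CPM against 0.570 and 1.33 CPM. Both ACBI1 libraries were far below both DMSO libraries, although they differed from each other by 2.33-fold. The log2 change was -3.01 (SE 0.49), an 8.06-fold fall with an edgeR adjusted p of 0.0138, and it was -3.74 without ACBI1 replicate 2. SNAI2 counts were 0.248 and 0.157 of the SNAI1 counts with DMSO and 0.0294 and 0.0576 with ACBI1, so SNAI2 was also lower relative to its paralogue.

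TWIST1, which specifies mesoderm and cranial mesenchyme, was at 16.5 and 18.6 CPM with DMSO and at 13.9 and 17.7 CPM with ACBI1. The groups overlap. Its log2 change of -0.15 had a 95% interval from -0.67 to 0.36 (adjusted p 0.657), and it was 0.02 without ACBI1 replicate 1.

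VIM forms the intermediate filaments of mesenchymal cells. It was at 3034 and 2677 CPM with DMSO and at 2957 and 2842 CPM with ACBI1, and both ACBI1 values lie between the DMSO values. The log2 change of 0.02 had a 95% interval from -0.43 to 0.48 (adjusted p 0.950), and it was -0.07 without DMSO replicate 2. Exons of other genes, mainly VIM-AS1 on the opposite strand, cover 24.4% of the exonic length of VIM, and the strand setting of the counting is not given in the sources used here. VIM-AS1 was at 35.2 and 38.6 CPM with DMSO and at 34.6 and 38.7 CPM with ACBI1, overlapping as VIM did.

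FN1, the glycoprotein that cells assemble into pericellular fibrils through integrins, was at 3555 and 4636 CPM with DMSO and at 504 and 970 CPM with ACBI1. The highest ACBI1 library was far below the lowest DMSO library. The log2 change was -2.48 (SE 0.36), a 5.56-fold fall with an edgeR adjusted p of 0.00996, and it ranged from -3.03 to -2.07 with each library left out. With DMSO there were 1.17 and 1.73 FN1 counts for each VIM count, and with ACBI1 0.170 and 0.341.

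SPARC, a collagen-binding matricellular protein, was at 94.4 and 184 CPM with DMSO and at 29.6 and 28.1 CPM with ACBI1. The DMSO libraries differed by 1.95-fold and the ACBI1 libraries by 1.05-fold, and the groups do not overlap. The log2 change was -2.27 (SE 0.33), a 4.83-fold fall with an edgeR adjusted p of 0.00971, and it ranged from -2.67 to -1.71 with each library left out.

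TGFBI, a secreted ligand of integrins named for its induction by TGF-beta, was at 275 and 373 CPM with DMSO and at 120 and 138 CPM with ACBI1. All ACBI1 values are below all DMSO values. The log2 change was -1.33 (SE 0.21), a 2.52-fold fall with an edgeR adjusted p of 0.0127, and the call was lost without ACBI1 replicate 1 (log2 change -1.22, adjusted p 0.0616).

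THBS1, a matricellular protein that can activate latent TGF-beta, was at 113 and 696 CPM with DMSO and at 72.1 and 302 CPM with ACBI1. Replicate 2 was higher than replicate 1 in both groups, by 6.16-fold with DMSO and by 4.18-fold with ACBI1, and the groups overlap. The log2 change of -1.11 had a 95% interval from -3.37 to 1.15 (adjusted p 0.448), and it was 0.72 without DMSO replicate 2. CCN2, another matricellular gene, showed a like spread between the DMSO replicates, with 42.4 and 221 CPM, against 49.9 and 69.8 CPM with ACBI1.

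**Figure D2:**
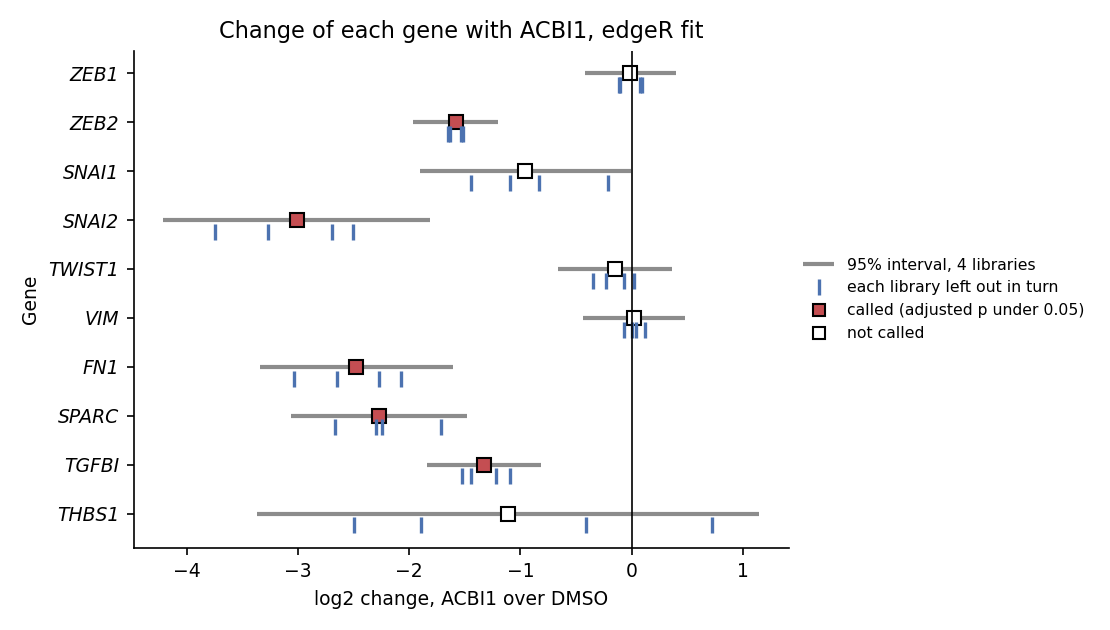
Fitted log2 change of each of the 10 genes (horizontal axis, ACBI1 over DMSO), with called genes as red squares, other genes as open squares, the 95% interval over 4 libraries as a grey line and the values with each library left out as blue ticks. The 5 called genes have all ticks below 0, ZEB1, TWIST1 and VIM have theirs within 0.35 of 0, and the ticks of THBS1 run from -2.50 to 0.72.

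Within a library, SPARC and TGFBI, like FN1, were lower relative to VIM, while the groups overlapped for THBS1. SPARC counts were 0.0311 and 0.0689 of the VIM counts with DMSO and 0.01002 and 0.00989 with ACBI1. TGFBI counts were 0.0905 and 0.139 of the VIM counts with DMSO and 0.0404 and 0.0485 with ACBI1. The ratio of CDH2 to VIM had a smaller difference, from 0.352 and 0.470 with DMSO to 0.189 and 0.273 with ACBI1. THBS1 counts were 0.0372 and 0.260 of the VIM counts with DMSO and 0.0244 and 0.106 with ACBI1. Set against FN1 they were 0.0318 and 0.150 with DMSO and 0.143 and 0.311 with ACBI1, so that this ratio was on average higher with ACBI1, with overlapping groups. These ratios show unequal change within the set, not that VIM itself held its amount per cell. Since the samples are bulk RNA, fewer cells that express a gene and less RNA per cell cannot be told apart.

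**Figure D3:**
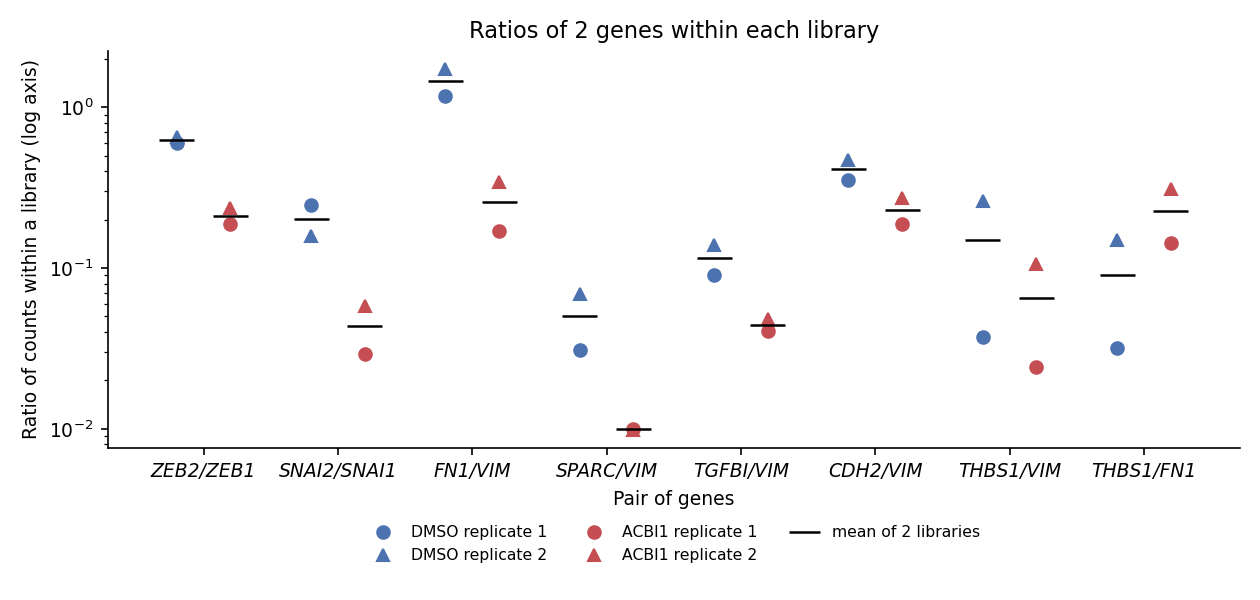
Ratio of the counts of 2 genes within each library (vertical log axis) for 8 pairs (horizontal axis), with DMSO in blue, ACBI1 in red, replicate 1 as circles, replicate 2 as triangles and the mean of 2 libraries as a bar. Both ACBI1 ratios are below both DMSO ratios in the 6 pairs without THBS1, from 0.601 and 0.649 to 0.188 and 0.235 for ZEB2 over ZEB1, and the groups overlap for THBS1 over VIM and THBS1 over FN1.

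Promoter sequences of 7 of the 10 genes are in the RefSeq table used here (build GRCh38.p14). The 250 bases before the start site were searched on both strands for an E-box bound by ZEB and Snail proteins (CAGGTG), the AP-1 element (TGANTCA), the cyclic AMP response element CRE (TGACGTCA) and the TEAD core (GGAATG). In all 35116 windows of this length, these motifs occurred in 17.5%, 6.57%, 1.65% and 11.9% of windows. A match describes the letters and does not show binding. The 4 windows printed are those of the most abundant gene that fell (FN1), of SPARC, of the gene that differed most between replicates (THBS1) and of the 1 of 7 alternative ZEB1 starts with 2 E-boxes, each with the matched bases in capitals and read 5′ to 3′ on the strand of the gene. FN1, on chr2:215436069-215436318 (minus strand), holds a CRE whose first base is 183 bases before the start. SPARC, on chr5:151686916-151687165 (minus strand), holds a TEAD core 17 bases before the start, and THBS1, on chr15:39580829-39581078 (plus strand), holds one at 46 bases. The ZEB1 window, on chr10:31318966-31319215 (plus strand), holds E-boxes at 242 and 85 bases, and another ZEB1 window holds one at 57 bases. None of the 4 motifs was in the windows of ZEB2, VIM or TGFBI.
FN1: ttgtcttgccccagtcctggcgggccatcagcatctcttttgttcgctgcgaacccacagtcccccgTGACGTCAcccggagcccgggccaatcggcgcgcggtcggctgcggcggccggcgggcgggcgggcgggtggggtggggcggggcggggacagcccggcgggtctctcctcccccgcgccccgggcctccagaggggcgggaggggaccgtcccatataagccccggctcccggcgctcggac
SPARC: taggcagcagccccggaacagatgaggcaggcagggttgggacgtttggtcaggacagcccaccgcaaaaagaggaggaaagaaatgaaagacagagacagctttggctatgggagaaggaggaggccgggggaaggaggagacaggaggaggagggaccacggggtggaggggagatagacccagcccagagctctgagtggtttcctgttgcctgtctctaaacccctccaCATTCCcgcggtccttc
THBS1: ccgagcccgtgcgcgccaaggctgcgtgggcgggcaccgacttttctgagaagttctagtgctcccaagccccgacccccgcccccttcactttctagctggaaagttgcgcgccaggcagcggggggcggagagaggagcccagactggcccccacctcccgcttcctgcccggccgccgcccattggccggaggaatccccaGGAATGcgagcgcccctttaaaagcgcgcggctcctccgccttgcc
ZEB1: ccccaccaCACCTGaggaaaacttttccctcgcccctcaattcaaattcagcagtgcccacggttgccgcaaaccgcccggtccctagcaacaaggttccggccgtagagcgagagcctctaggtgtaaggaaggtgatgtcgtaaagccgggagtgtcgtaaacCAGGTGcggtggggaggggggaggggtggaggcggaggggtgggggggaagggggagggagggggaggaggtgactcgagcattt

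Genes that act beside the 10 were read from 9 lists, with 35 of 105 tested genes called, 32 lower and 3 higher. The share of all genes tested, to be set beside this count and that of each list, was 17.4% called, 10.6% lower and 6.75% higher. Among 12 other EMT transcription factors, of which 10 were tested, 3 were called lower and 1 higher, with a median log2 change of -0.39. SOX9, a factor of chondrocytes and of lung progenitors, fell from 150 and 211 CPM to 12.0 and 24.1 CPM, a log2 change of -3.32 (SE 0.38, edgeR adjusted p 0.00562). Leaving out ACBI1 replicate 2 moved it to -3.92. The mesenchymal homeobox gene PRRX1 fell by 1.10 on the log2 scale (adjusted p 0.0102), and FOXC1 fell by 0.72 (adjusted p 0.0301). TCF3, which encodes the E-box binding E2A proteins and is a partner of TWIST1, rose with a log2 change of 0.85 (adjusted p 0.0310). The calls of PRRX1, FOXC1 and TCF3 were each lost with at least 1 library left out (largest adjusted p 0.0519, 0.170 and 0.157). TWIST2, the paralogue of TWIST1, was at 6.77 and 6.44 CPM with DMSO and 5.69 and 8.80 CPM with ACBI1, overlapping as TWIST1 did, with a log2 change of 0.13 (adjusted p 0.794). SNAI3 had 8 and 15 counts with DMSO and 1 and 1 with ACBI1, too few to be tested.

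Epithelial genes that were called went mostly the same way as FN1, SPARC and TGFBI, with 9 lower and 2 higher in 2 lists. Of 12 epithelial transcription factors and splicing regulators, 8 were tested and 4 were called, each of them lower (median log2 change -0.68). Only those 4 of the 8 had a log2 change below 0. GRHL1 went the other way, from 1.67 and 1.85 CPM with DMSO to 3.82 and 3.14 CPM with ACBI1. Its log2 change of 0.98 was called higher by DESeq2 but not by edgeR (adjusted p 0.0793) or limma-voom. The ETS factor ELF3 fell from 13.0 and 23.7 CPM to 0.201 and 0.244 CPM, a log2 change of -6.37 (edgeR adjusted p 0.00193). For EHF, of the same subfamily, 530 and 450 counts in the controls stood against 7 and 0 after the degrader. The fitted log2 change of EHF was -7.14 (edgeR adjusted p 0.005215). Leaving out ACBI1 replicate 1 gave -11.86, but the ACBI1 library that remains has 0 EHF counts, so that size is not a measured one. The Krüppel-like factors KLF4 and KLF5 fell by 1.89 (adjusted p 0.0153) and 1.39 (adjusted p 0.007505) on the log2 scale. GRHL2 and OVOL2, which maintain epithelial identity against ZEB1, had at most 3 counts in any library.

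Of 21 epithelial junction and surface genes, 15 were tested, 5 were called lower and 2 higher, and the median log2 change was -1.56. JUP (plakoglobin), a plaque protein of junctions, fell from 112 and 331 CPM to 2.87 and 12.8 CPM, a log2 change of -4.83 (edgeR adjusted p 0.0179). That value moved to -6.28 when ACBI1 replicate 2 was left out and to -3.85 when DMSO replicate 2 was. The tight junction genes CLDN4 and CLDN7 had log2 changes of -5.07 (adjusted p 0.00357) and -1.85 (adjusted p 0.0271), and the membrane protease gene ST14 one of -3.64 (adjusted p 0.0185). CLDN4 was at -4.40 and ST14 at -2.75 without DMSO replicate 2, ST14 was at -4.44 without ACBI1 replicate 1, and CLDN7 was not called without either ACBI1 library (adjusted p up to 0.104). The 2 called higher, named after their values were seen, were the polarity gene PATJ, from 12.3 and 9.45 CPM to 34.9 and 26.8 CPM (adjusted p 0.0117), and the desmosomal gene PKP2 at a log2 change of 1.12 (adjusted p 0.0317). PKP2 lost its call whichever library was left out (adjusted p up to 0.150).

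Of 9 tested mesenchymal cadherin and contractile genes, edgeR called 1, TPM1 (tropomyosin 1), with a log2 change of -1.40 (adjusted p 0.00868), and the median was -0.48. CDH2 was at 1067 and 1258 CPM with DMSO and 558 and 774 CPM with ACBI1. Its log2 change of -0.80 did not pass the edgeR test (adjusted p 0.0599) and was called lower by DESeq2 and limma-voom. FSCN1 went the other way, from 99.9 and 202 CPM with DMSO to 228 and 374 CPM with ACBI1. The log2 change of FSCN1 was 1.00, called higher by DESeq2 but not by edgeR (adjusted p 0.131) or limma-voom. Of 6 tested intermediate filament relatives of VIM, none was called by the main edgeR fit, DESeq2 or limma-voom. The median was -0.08, and 1 (SYNM, higher) had an unadjusted edgeR p under 0.05. With a replicate block edgeR called 2 of this list, 1 lower and 1 higher. Run on every gene with a count, it called 2, both higher. NES (nestin), which can assemble with vimentin, was at 229 and 258 CPM with DMSO and 201 and 256 CPM with ACBI1. DES had at most 2 counts in any library.

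Of 18 matricellular relatives of SPARC, THBS1 and TGFBI, 14 were tested, 5 were called, each of them lower, and the median log2 change was -1.09. For SMOC1, of the SPARC family, 267 counts in the DMSO libraries stood against 2 in the ACBI1 libraries, and the ratio per library size was 135 (95% exact counting interval 37.0 to 1120). SPOCK1 and SPOCK2, which share the calcium-binding domain of SPARC, had log2 changes of -1.78 (adjusted p 0.010013) and -2.28 (adjusted p 0.0301). SPOCK2 kept its call in 1 of 4 fits with a library left out. TNC (tenascin C) fell from 60.6 and 32.1 CPM to 11.6 and 4.74 CPM, a log2 change of -2.50 (edgeR adjusted p 0.0231) that moved to -3.28 when ACBI1 replicate 1 was left out. POSTN (periostin), the closest relative of TGFBI, was at 682 and 1829 CPM with DMSO and 146 and 583 CPM with ACBI1. Both ACBI1 libraries were below both DMSO libraries, but the spread was wide and the log2 change of -1.79 was not called (adjusted p 0.142). SPARCL1 had at most 4 counts in any library, and THBS2 (log2 change -0.08, adjusted p 0.931) and THBS3 (-0.01, adjusted p 0.976) were not called.

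Among 13 genes for receptors of fibronectin, TGFBI and thrombospondin, 12 were tested, 6 were called, each of them lower, and the median was -0.89. The syndecan gene SDC4, a co-receptor for fibronectin, fell from 379 and 444 CPM to 68.7 and 67.0 CPM, a log2 change of -2.60 (SE 0.18, edgeR adjusted p 0.00193). LRP1, an endocytic receptor that clears thrombospondin, fell by 2.08 on the log2 scale (adjusted p 0.0173), and the integrin gene ITGA3 fell by 1.66 (adjusted p 0.00687). ITGA5, the alpha chain of the classical fibronectin receptor, fell from 170 and 251 CPM to 56.8 and 97.7 CPM, a log2 change of -1.45 (adjusted p 0.0304) whose call was lost without ACBI1 replicate 1 (adjusted p 0.0922). Its partner ITGB1 was at 1585 and 1940 CPM with DMSO and 1695 and 1975 CPM with ACBI1, with a log2 change of 0.06 (adjusted p 0.870), and ITGAV had one of -0.50 (adjusted p 0.332).

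TGF-beta is a main inducer of SNAI, ZEB, FN1 and TGFBI transcription. All 17 genes of its list were tested, 8 were called, each of them lower, and the median was -0.91. LTBP3, which tethers latent TGF-beta, fell by 2.48 on the log2 scale (adjusted p 0.00255), and the feedback inhibitors PMEPA1 and SMAD7 had log2 changes of -1.56 (adjusted p 0.00687) and -1.43 (adjusted p 0.0190). Of the ligands, TGFB1 was not called (log2 change -0.51, adjusted p 0.189) and TGFB2 was called at -0.91 (adjusted p 0.0480). Of the receptors, TGFBR1 fell by 1.28 on the log2 scale (adjusted p 0.00935), while TGFBR2, at -0.94, was not called (adjusted p 0.0511). The calls were lost without ACBI1 replicate 1 for SMAD7 (adjusted p 0.0611), and without any library but DMSO replicate 1 for TGFB2 (adjusted p up to 0.151).

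Corepressors of ZEB and Snail proteins and genes for the turnover of those proteins made up the last list. None of its 14 tested genes was called by the main edgeR fit, DESeq2 or limma-voom. The median log2 change was 0.17, and 1 gene (RCOR1, higher) had an unadjusted edgeR p under 0.05. An edgeR fit with a replicate block called 3 of this list, all higher, and 7909 genes in all. CTBP1 and CTBP2, corepressors recruited by ZEB proteins, had log2 changes of 0.15 (adjusted p 0.560) and -0.21 (adjusted p 0.410). Some named genes share exonic sequence with annotated neighbours, which makes their counts less certain: CTBP2 over 34.7% of its exonic bases, SYNM over 27.7%, TGFB2 over 26.6%, THBS3 over 25.4%, TPM1 over 21.4%, ELF3 over 18.5%, KRT18 over 16.3%, PDGFRA over 15.8%, CTBP1 over 13.3% and CLDN7 over 12.3%.

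**Figure D4:**
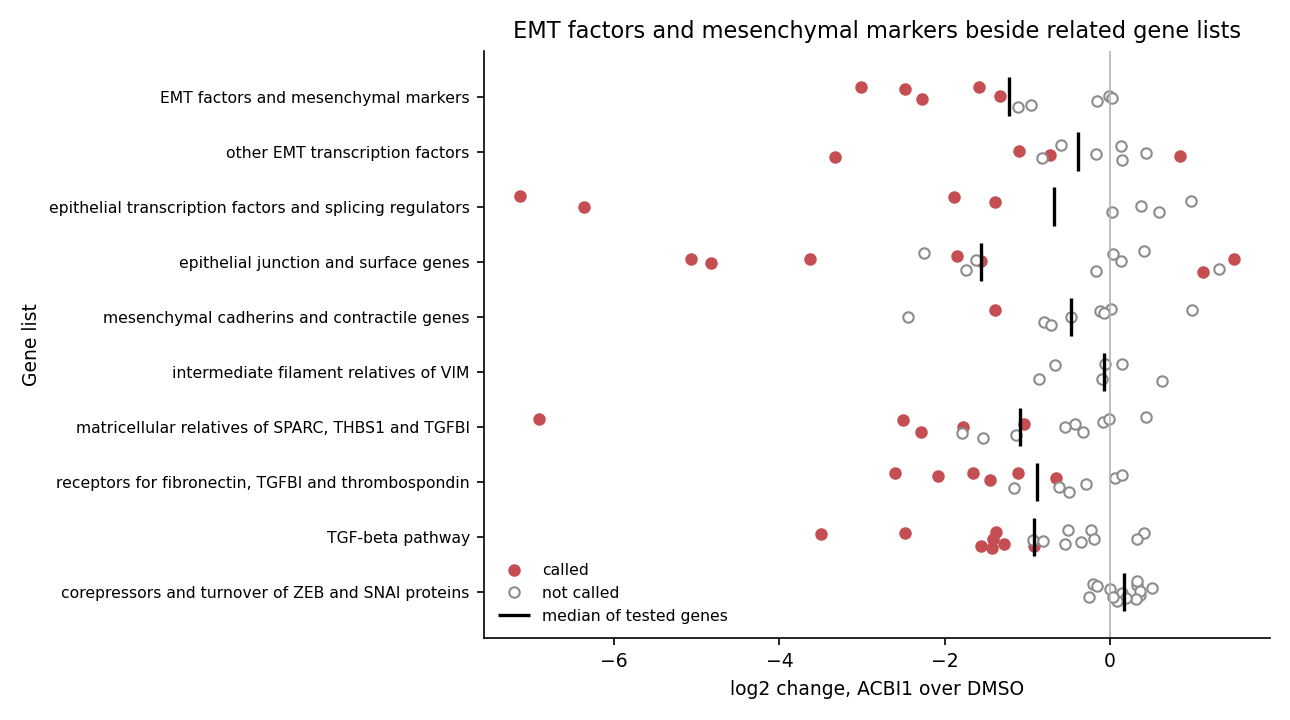
Fitted log2 change (horizontal axis, ACBI1 over DMSO) of each tested gene in the set of EMT factors and mesenchymal markers and in 9 related lists (vertical axis), with called genes in red, other genes open and the median as a black bar. The lists of matricellular genes, receptors and the TGF-beta pathway have medians of -1.09, -0.89 and -0.91, and the corepressor list has its genes close to 0 with a median of 0.17.

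Markers of other cell types were read beside these results. The summed level of 6 fibroblast markers was 25.4 and 72.5 CPM with DMSO and 2.71 and 7.37 CPM with ACBI1. Of 5 that were tested, 4 were called lower, namely DCN, LUM, PDGFRA and COL6A3, and THY1 had at most 1 count in any library. LUM was not called without ACBI1 replicate 1 (adjusted p 0.0717). The sizes moved with the library left out, from -4.15 to -2.20 on the log2 scale for LUM, from -5.31 to -3.39 for PDGFRA, from -6.93 to -5.64 for DCN and from -3.70 to -2.35 for COL6A3. The lowest of each was without ACBI1 replicate 2, and the highest was without DMSO replicate 2, or for COL6A3 without ACBI1 replicate 1. The 6 endothelial markers summed to 12.8 and 49.0 CPM with DMSO, nearly all of it PECAM1 (12.2 and 48.1 CPM), and to 0.123 and 0.137 CPM with ACBI1, and CDH5 had at most 4 counts. Of 3 endothelial markers tested, 2 were called lower, PECAM1 and VWF. VWF had 24 and 23 counts with DMSO and 0 in both ACBI1 libraries, and its call was lost without ACBI1 replicate 1 (adjusted p 0.0513). Immune markers summed to between 0.454 and 1.28 CPM in the 4 libraries, and CD3E had 0 counts. The fibroblast, endothelial and keratin transcripts that were called moved in the same direction as FN1, SPARC and TGFBI, and their part in those results was not tested.

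For each of the 5 genes that fell, the genes with the most similar profile over the 4 libraries were listed among those with a mean of at least 5 CPM, by the root mean square distance between centred log2 CPM. For ZEB2 these were RCAN1, MICAL2 and DLGAP4, at 0.0185, 0.0311 and 0.0368, and 156 genes lay within 0.2. For TGFBI they were ITM2B, MYDGF and ZNF654, at 0.0138, 0.0225 and 0.0338, with 311 genes within 0.2. FN1 had TPBG, CORO6 and SLC2A6 at 0.0716, 0.103 and 0.141, with 7 genes within 0.2, and SPARC had CNIH3, ALDH6A1 and IL1R1 at 0.0739, 0.0774 and 0.117, with 20. SNAI2 had GABRR2, PCDH18 and ZC3H12A at 0.129, 0.141 and 0.164, with 4 genes within 0.2. None of the 5 genes had another of the 10 among its nearest 3. SNAI2 could not appear there, since its own mean was under 5 CPM.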

How the data were processed

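RNA was sequenced from H1792 cells in 4 libraries, 2 with DMSO and 2 with ACBI1, grouped by their titles. The values are raw counts of reads per gene symbol as deposited by the authors. The submitters' processing notes name TopHat2 2.1.1, HTSeq 0.11.0 and build hg38, with no role given. The annotation and strand setting are not given in the sources used here. Reads assigned to no gene (13.9% to 15.4% of those listed) were left out. They are the reads with no feature, the ambiguous ones and those not aligned uniquely.

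Genes kept by filterByExpr (minimum count 10, minimum total 15) were scaled by TMM and tested on treatment alone with edgeR 4.0.16 (R 4.3.3, quasi-likelihood, two-sided, Benjamini-Hochberg over 19159 genes). The SE is the log2 change divided by the square root of F. Counting intervals cover counting error only. Exon lengths and overlaps came from GENCODE release 29 by symbol (93.2% of genes). Alternatives were 3 scalings, 2 filters, a replicate block, DESeq2 1.42.0, limma-voom 3.58.1, 2 thresholds and each library left out in turn, where the lone library is assumed to vary like the other group. The scripts were tested on simulated counts.

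The 10 genes and the lists were chosen with earlier results of these data known. Named from each list were up to 4 called genes, taken by size of change, close relatives of the 10 genes, and cadherins, EPCAM, TGF-beta ligands and receptors, integrins and corepressors whatever their test. One gene that this rule names is not reported here. CCN2, CDH11, FSCN1, SYNM, RCOR1, GRHL1, GRHL2, OVOL2, PATJ, PKP2 and single cell type markers were named after their values were seen. For similarity, 0.01 CPM was added before log2.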

Additional observations from a re-analysis of the deposited data

How the results depend on the processing

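The main fit called 3331 of 19159 genes tested (17.4%), 35 in the lists and 5 of the 10 genes. Of the 10 genes, the same 5 were called lower under each of 3 scalings, DESeq2 and limma-voom, and none was called higher under any alternative. ZEB1 changed sign under scaling by upper quartile (0.020) and by library size only (0.076), never with a call. With each library left out, the log2 change ranged from -0.113 to 0.0933 for ZEB1, from -0.349 to 0.0201 for TWIST1, from -0.0697 to 0.119 for VIM and from -2.50 to 0.722 for THBS1, which was above 0 without DMSO replicate 2. At a threshold of 0.01, 3 of the 10 genes were called, all 3 lower, with 783 calls over all genes and 14 in the lists. Tests on every gene with a count, a wider set than the 19159, gave 5518 calls over all genes and 54 in the lists. They called 7 of the 10 genes, adding SNAI1 and THBS1. The SE of THBS1 was 0.211 there against 0.928 in the main fit, and that of SNAI1 0.224 against 0.390. These smaller SE values do not reflect the wide spread of THBS1 between replicates, so the added calls carry little weight. With a mean of at least 5 CPM required, SNAI2 was not tested and 4 of the 10 were called. That filter gave 2555 calls over all genes and 32 in the lists, from a narrower set than the 19159. Fits that change the filter or leave out a library each have their own number of genes tested. Their counts of calls, over all genes or among the 10, are therefore not to be set beside the 17.4% of the main fit. With each library left out, calls over all genes ranged from 1379 to 4292, those in the lists from 25 to 47 and those among the 10 genes from 4 to 7, all lower. Of the 35 called list genes, 20 were called with each of the 4 libraries left out, and all 35 kept their direction there and under the 3 scalings. The replicate block gave 7909 calls over the same 19159 genes, 4201 lower and 3708 higher, and 64 in the lists. It called 7 of the 10 genes, adding SNAI1 (edgeR adjusted p 0.00544) and THBS1 (edgeR adjusted p 0.000849). Across genes, deviations of replicate 1 from the group mean correlated between the groups (Pearson's r 0.522, a description over genes), but the labels do not say that a number marks a shared batch. With 2 libraries a group, changes as small as those of ZEB1, TWIST1 and VIM could not be told from 0.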
